A study of Mus musculus with 10 samples.

Results

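The 10 genes described here act in the piRNA pathway or in germ granules: Ddx4, Mael, Mov10l1, Asz1, Tdrd1, Tdrd6, Tdrd9, Tdrkh, Tex19.1 and Piwil2. They were chosen by name from the 31660 gene names that the array carries, and each had 1 probe. Of the 10, 6 entered the tests among 20666 genes: Ddx4, Mael, Mov10l1, Tex19.1, Piwil2 and Asz1. Tdrd1, Tdrd6, Tdrd9 and Tdrkh were too dim in every group and were tested only in a setting with no filter on dim probes.

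piRNAs are small RNAs of the germ line that guide PIWI proteins to transposon transcripts and silence them. The proteins that make and use piRNAs gather in germ granules, cytoplasmic bodies beside the nucleus or the mitochondria of germ cells, where Tudor-domain proteins hold PIWI proteins and RNA helicases together. Several of these genes have CpG-rich promoters that are methylated in somatic cells and lose methylation in primordial germ cells, and Tet1 and Tet2 encode enzymes that oxidise the methyl group of 5-methylcytosine.

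The study profiled RNA of mouse embryonic stem (ES) cells on 10 two-colour arrays to ask how loss of Tet1, Tet2 or both alters expression. The cells with both genes knocked out (DKO) were the male lines 51 and 61 and the female lines 59 and 60. Tet2 knockout (T2KO) was 1 male line, 16, and Tet1 knockout (T1KO) was the male lines 65 and 99. The wild-type (WT) cells were the male lines 6 and 92 and the female lines 7 and 94. All lines came from a mixed C57/BL/6 background, grew with LIF on irradiated feeder cells and were freed of feeders by preplating on gelatin before RNA was taken. The deleted part of Tet1 or Tet2 is not given in the labels, and T2KO rests on 1 line. Each DKO line was hybridised with a WT line of its sex, on 6 arrays in all, DKO 51 with WT 6, DKO 61 with WT 92, DKO 60 with WT 7 and DKO 59 with WT 94. T2KO 16 was hybridised with T1KO 65 on 2 arrays. T1KO 99 shared its 2 arrays with a sample that the submitters left out for its genotype and that is in no comparison here.

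DKO and T2KO RNA was always in Cy5, and T1KO and WT RNA was always in Cy3. Loss of Tet2 and the dye therefore cannot be told apart in any value of Cy5 against Cy3. Sex and slide cannot be told apart either. The male DKO arrays, the female DKO arrays and the other arrays each had a slide of their own. Likewise, genotype and slide cannot be told apart where levels of T1KO or T2KO lines are set against those of male DKO or WT lines. Where nothing states separate cultures, p-values measure the spread between these lines only, and the number of lines limits the precision.

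The labels were checked on the targeted genes. The log2 level of Tet1 was 10.52 to 11.07 in DKO lines, 12.91 in T2KO, 10.92 to 10.997 in T1KO and 12.78 to 13.12 in WT lines. That of Tet2 was 9.40 to 10.12 in DKO lines, 9.74 in T2KO, 11.43 to 11.58 in T1KO and 11.51 to 12.05 in WT lines. Each line was thus low in the gene or genes its label names. All 10 ES cell markers were well above background in every one of the 18 labelled channels, and so were all 15 feeder fibroblast markers. The log2 of the summed feeder markers was 16.48 to 16.98 in DKO lines, 16.32 in T2KO, 17.07 to 17.24 in T1KO and 16.60 to 17.68 in WT lines. In bulk RNA, fewer cells of a type and less RNA per cell cannot be told apart. All 8 primordial germ cell markers were well above background in every channel too, and their summed log2 level was 14.68 to 14.77 in DKO lines, 15.01 in T2KO, 14.80 to 14.96 in T1KO and 14.58 to 15.01 in WT lines. Their detection in bulk RNA does not show which cells gave the signal. This list shares Dazl and Nanos3 with the list of further piRNA and germ granule genes given below.

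The promoters of the members were read from RefSeq's table on GRCm38.p6, which holds 8 of the 10 genes and has no entry for Tdrd6 and Piwil2. Each entry runs from 250 bases before the annotated start to 50 bases after it. Searched on both strands, the E-box CACGTG, a palindrome, was in 5 of the 8 genes, Ddx4, Mael, Mov10l1, Tdrd1 and Tdrd9, against 7.15% of all 32851 promoters of that length. The E2F-type motif TCCCGC was in 3 of the 8, Ddx4, Mael and Tex19.1, against 20.0% of all promoters, and it did not overlap an E-box. Ddx4 and Mael held both, as did 1.99% of all promoters. The shares count single promoters, whereas a member counts once if any of its promoters holds the motif. Both motifs contain a CpG, and the shares of all promoters are not matched for CpG number. Both letter strings resemble sites that the Polycomb complex with Mga, Max and E2f6 is known to bind at germline genes, but a match is a description only.

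The 5 promoters below are shown because they hold the motifs in genes that were bright on the arrays (Ddx4, Mael, Mov10l1, Tex19.1) and in 1 that was dim (Tdrd9). Capitals mark the motifs, the reverse complement of TCCCGC reads GCGGGA, and each sequence is given 5′ to 3′ on the gene's strand up to base 30 after the start. Ddx4 lies at chr13:112652281-112652560 (minus strand), Mael at chr1:166238715-166238994 (minus strand), Mov10l1 at chr15:88982744-88983023 (plus strand), Tdrd9 at chr12:111971309-111971588 (plus strand) and Tex19.1 at chr11:121145893-121146172 (plus strand).
Ddx4 promoter: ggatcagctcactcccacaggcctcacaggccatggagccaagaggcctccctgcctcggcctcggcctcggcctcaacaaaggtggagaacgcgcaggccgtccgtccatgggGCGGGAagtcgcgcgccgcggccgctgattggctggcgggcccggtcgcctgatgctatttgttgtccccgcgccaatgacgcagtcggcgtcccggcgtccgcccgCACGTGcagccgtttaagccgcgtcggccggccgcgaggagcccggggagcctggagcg
Mael promoter: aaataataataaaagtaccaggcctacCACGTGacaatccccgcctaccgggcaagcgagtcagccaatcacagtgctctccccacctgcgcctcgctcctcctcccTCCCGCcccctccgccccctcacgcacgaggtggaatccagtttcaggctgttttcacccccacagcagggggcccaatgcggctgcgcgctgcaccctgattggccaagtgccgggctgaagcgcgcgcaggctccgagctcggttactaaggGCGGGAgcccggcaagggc
Mov10l1 promoter: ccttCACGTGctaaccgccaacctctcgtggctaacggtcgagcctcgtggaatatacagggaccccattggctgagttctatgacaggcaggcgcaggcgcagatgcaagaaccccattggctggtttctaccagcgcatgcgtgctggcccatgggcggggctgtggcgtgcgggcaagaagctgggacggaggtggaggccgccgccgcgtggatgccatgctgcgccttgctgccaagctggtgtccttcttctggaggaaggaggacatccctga
Tdrd9 promoter: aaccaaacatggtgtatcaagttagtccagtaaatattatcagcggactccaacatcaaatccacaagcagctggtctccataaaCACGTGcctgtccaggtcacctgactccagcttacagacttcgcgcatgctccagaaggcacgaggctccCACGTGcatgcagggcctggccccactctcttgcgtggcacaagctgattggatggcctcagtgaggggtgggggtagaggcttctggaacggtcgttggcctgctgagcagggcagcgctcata
Tex19.1 promoter: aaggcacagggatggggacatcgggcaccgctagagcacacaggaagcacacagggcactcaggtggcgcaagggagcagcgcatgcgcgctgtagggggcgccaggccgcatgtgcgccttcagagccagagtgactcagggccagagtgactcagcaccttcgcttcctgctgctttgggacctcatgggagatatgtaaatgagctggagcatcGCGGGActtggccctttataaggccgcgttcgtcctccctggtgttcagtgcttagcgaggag

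With the annotated start as position 0, the E-box began at -29 in Ddx4, at -223 in Mael and at -246 in Mov10l1. Tdrd9 held a pair of E-boxes, at -165 and -95. The E2F-type motif began at -136 in Ddx4, at -143 and 11 in Mael and at -33 in Tex19.1. Tdrd1 has 3 annotated promoters, 2 of which overlap and hold the same E-box. The number of CpG dinucleotides, where DNA methylation is found, was 38 in Ddx4, 25 in Tdrkh, 24 in Mael, 20 in Mov10l1, 17 in Asz1, 16 in Tex19.1 and 10 in Tdrd9, against a median of 7 over all promoters (quartiles 3 and 20). Of the 10 member promoters, 9 were above that median, and the exception was a Tdrd1 promoter with 3. DNA methylation was not analysed here.

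**Figure D1:**
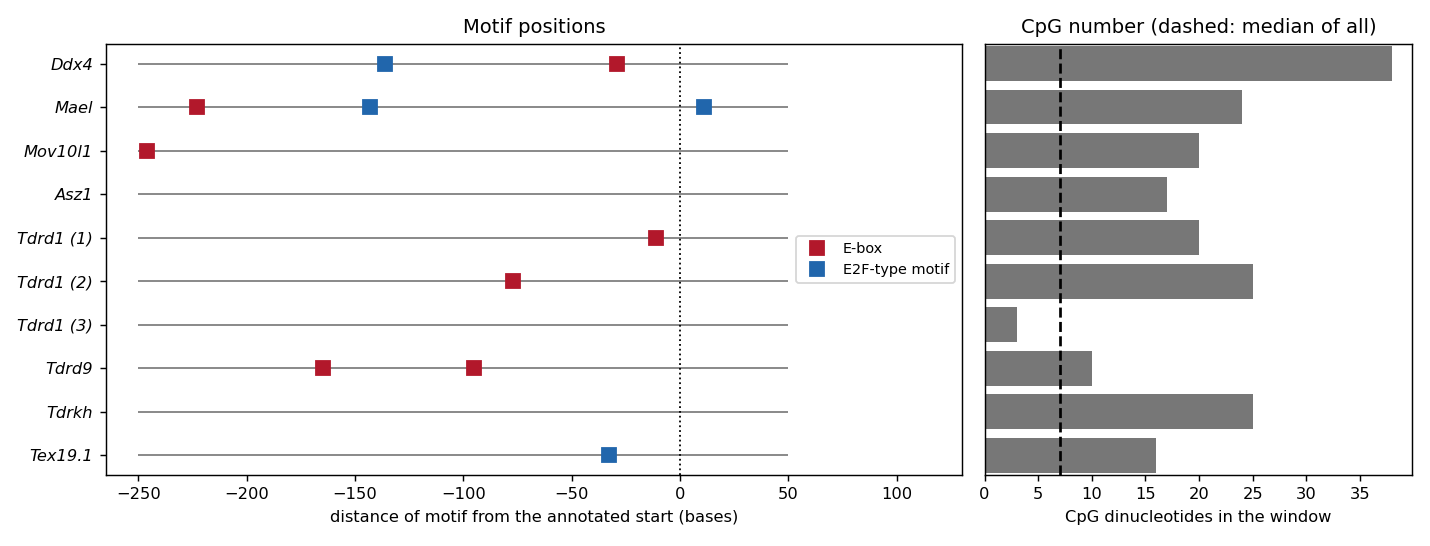
Left, the position of each E-box (red) and E2F-type motif (blue) in the 10 member promoters, in bases from the annotated start. Right, the number of CpG dinucleotides in each window, with the median of all promoters (7) dashed. Ddx4 has both motifs and the most CpGs (38), and 2 of the 3 Tdrd1 windows share an E-box.

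Detection split the members into a bright and a dim set. Ddx4, Mael, Mov10l1, Tex19.1 and Piwil2 were well above background in all 18 labelled channels, so wild-type ES cells already gave a signal for an RNA helicase of the granules, a PIWI protein and a piRNA-precursor helicase. Tdrd1 and Tdrd6, Tudor scaffolds of the granules and of the later chromatoid body, were above background in none. Tdrd9, a Tudor-domain helicase, was above background in 2 of 18 channels, 1 of the 6 DKO arrays and 1 of the 2 T2KO arrays. Tdrkh, a mitochondrial Tudor protein of piRNA trimming, was above it in 6 of 18, on 4 of 6 DKO arrays and 2 of 6 WT arrays. Its mean log2 level was nevertheless lower in DKO lines (6.59) than in WT lines (6.85). Over all gene spots, 62.6% to 69.0% per array were well above background in Cy5, against 55.2% to 61.5% in Cy3. Detection in DKO or T2KO thus cannot be told apart from the dye. Asz1, which anchors granules to mitochondria, was above background on 3 of 3 female DKO arrays and nowhere else, so it passed the filter only through that group. Even there DKO 60, at 6.58, was below WT 7, at 6.65, and DKO 59, at 6.85, was above WT 94, at 6.51, so nothing is read from its detection.

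Ddx4, the mouse Vasa homologue and a DEAD-box RNA helicase, is probed on mm9 at chr13:113388616-113388675 (minus strand). Its normalized log2 level was 11.06 in DKO 51, 10.73 in DKO 61, 10.31 in DKO 59 and 10.53 in DKO 60, against 10.25 in WT 6, 9.88 in WT 92, 10.20 in WT 7 and 10.01 in WT 94. It was 11.03 in T2KO 16, and 10.18 and 10.30 in T1KO 65 and 99. Every line without Tet2 was above every line with it, by a narrow margin, since DKO 59 at 10.31 stood next to T1KO 99 at 10.30. The order was not kept under other background corrections. With normexp, the model-based background correction used here, fitted on all spots instead of those above their local background, the lowest of DKO and T2KO was 10.53 and the highest of T1KO and WT 10.89, and with the scanner software's signals the lowest DKO line was at 8.92 and the highest WT line at 9.16.

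Mov10l1, the RNA helicase that binds piRNA precursors, is probed at chr15:88884717-88884776 (plus strand). Its log2 level was 8.72 in DKO 51, 8.23 in DKO 61, 8.003 in DKO 59 and 8.36 in DKO 60, against 7.80 in WT 6, 7.44 in WT 92, 7.79 in WT 7 and 7.66 in WT 94. It was 8.60 in T2KO 16, and 7.67 and 7.73 in T1KO 65 and 99. The groups without and with Tet2 did not overlap, with 8.003 the lowest value of DKO and T2KO and 7.80 the highest of T1KO and WT. With normexp on all spots they overlapped through the T1KO lines, with 8.74 the lowest of DKO and T2KO and 9.10 the highest of T1KO and WT, while the lowest DKO line stayed above the highest WT line, at 8.60. As reported, Ddx4 and Mov10l1 were the 2 of 6 tested members in which every DKO line lay above every WT line, a pattern of 7.52% of all tested genes. With T2KO and T1KO added they were again the 2 of 6, against 3.01% of all tested genes.

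Mael, which encodes Maelstrom, a granule protein needed for transposon silencing, is probed at chr1:168131583-168131642 (minus strand). Its log2 level was 11.99 in DKO 51, 11.26 in DKO 61, 12.46 in DKO 59 and 12.94 in DKO 60, against 10.73 in WT 6, 10.68 in WT 92, 10.60 in WT 7 and 11.45 in WT 94. It was 11.79 in T2KO 16, and 10.60 and 10.90 in T1KO 65 and 99. The DKO and WT groups overlapped through a single pair of lines, since DKO 61 lay below WT 94, whose level stood apart from the 3 other WT lines.

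Piwil2, a PIWI protein that binds piRNAs (chr14:70772497-70772556, minus strand), varied widely among lines of the same genotype. Its log2 level was 8.81 in DKO 51, 8.15 in DKO 61, 8.59 in DKO 59 and 8.49 in DKO 60, against 8.56 in WT 6, 7.49 in WT 92, 8.91 in WT 7 and 7.63 in WT 94. T2KO 16, at 9.32, was above all other labelled lines, and T1KO 65 and 99 had 7.93 and 7.73. The WT lines thus spread over more than the whole range of the DKO lines.

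Tex19.1, a mammalian protein that restrains retrotransposons in germ cells and ES cells (chr11:121009485-121009544, plus strand), had a log2 level of 14.71 to 15.07 in DKO lines, 14.73 in T2KO 16, 14.33 and 14.47 in the T1KO lines and 14.24 to 14.95 in WT lines. These ranges overlapped between DKO and WT. Whether its probe also reads the related gene Tex19.2 was not tested. Asz1 ranged from 6.29 to 6.85 in DKO lines, 6.55 in T2KO, 6.40 to 6.62 in T1KO and 6.39 to 6.65 in WT lines, which overlapped throughout. Tdrd1, Tdrd6, Tdrd9 and Tdrkh lay near the dim end in every line and were outside the main tests. With no filter on dim probes, none of them passed in DKO over WT (limma adjusted p between 0.238 and 0.593). The log2 ratio of Tdrkh was then -0.25 (limma adjusted p = 0.238). The level of Tdrkh was lower in DKO lines, 6.40 to 6.76, than in WT lines, 6.73 to 7.01, with a narrow overlap. It was 6.14 in T2KO, the lowest of the labelled lines, and 6.59 to 6.78 in T1KO.

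**Figure D2:**
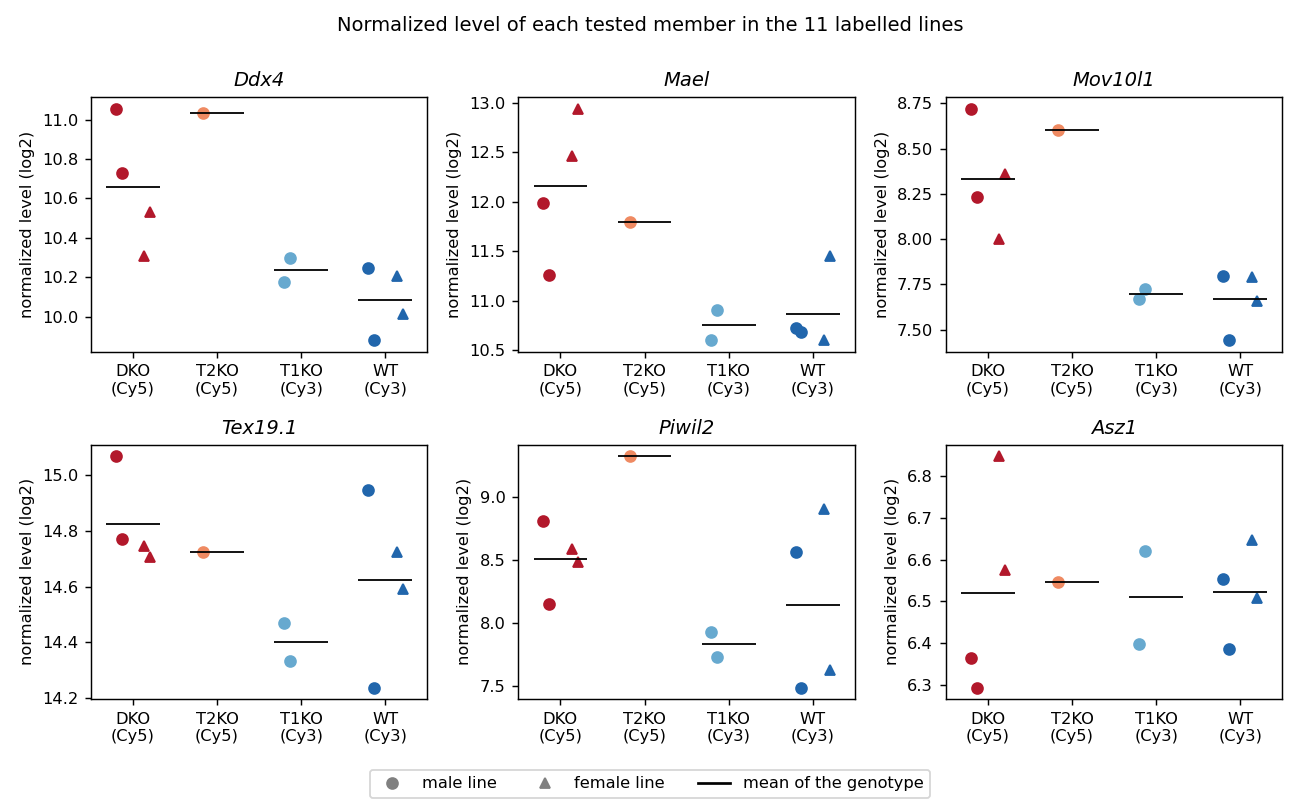
Normalized log2 level of the 6 tested members, with circles for male and triangles for female lines and a bar for the mean of the genotype (4 DKO, 1 T2KO, 2 T1KO and 4 WT lines). The vertical scales differ between panels and do not start at 0. In Ddx4 and Mov10l1 all DKO and T2KO lines lie above all T1KO and WT lines, an order lost in both with normexp on all spots, while Piwil2 and Tex19.1 overlap.

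DKO over WT asked what changes when both enzymes are absent. Mov10l1 rose, by a log2 ratio of 0.92 in the pair of DKO 51 and WT 6, 0.79 in DKO 61 and WT 92, 0.57 in DKO 60 and WT 7 and 0.34 in DKO 59 and WT 94. The mean was 0.66 (SE 0.110, 95% interval 0.38 to 0.94, n = 4 pairs), 1.58-fold, with a limma adjusted p of 0.0444 over all genes tested. It was the 1 of 6 tested members past the threshold of 0.05, when 2.86% of all tested genes rose and 4.59% changed in either direction. The call was narrow. It held in 4 of 15 alternative settings. Over all 15, the limma adjusted p ran between 0.00997 and 0.152 and the ratio between 0.57 and 0.97. When any 1 of the 4 pairs was left out, no gene at all passed.

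Ddx4 and Mael were positive in every pair without passing the threshold. Ddx4 had log2 ratios of 0.81 and 0.85 in the male pairs of DKO 51 and DKO 61, and 0.33 and 0.30 in the female pairs of DKO 60 and DKO 59, with a mean of 0.57 (SE 0.125, interval 0.25 to 0.89, 1.49-fold, limma adjusted p = 0.0727, n = 4 pairs). Mael had 1.26 and 0.57 in the male pairs of DKO 51 and DKO 61, and 2.33 and 1.01 in the female pairs of DKO 60 and DKO 59. Its mean of 1.29 was the largest of the members but also had a wide error (SE 0.289, interval 0.56 to 2.03, 2.45-fold, limma adjusted p = 0.0752). The pair of DKO 60 and WT 7, which gave the highest Mael value, also had the highest median of the 15 feeder markers, at a log2 ratio of 0.92 against -0.43 to 0.01 in the other DKO pairs. The same pair had a median of -1.64 over 6 markers of 2-cell-like cells, where the 3 remaining DKO pairs had 0.49 to 0.88. The part of either list in the Mael result was not tested. Without that pair the mean of Mael was 0.95. Both genes passed in 2 of 15 alternative settings, and their ratios were above 0 in all 15. Settings that changed only the filter, the variance prior, the pairing or the sex term left the ratio unchanged or nearly so. The sign could not turn in those settings. In DKO over WT as a whole, 7 of 7 primitive endoderm markers (median 0.24) and 3 of 10 ES cell markers (median -0.02) were above 0. Of the 15 feeder markers, 10 were above 0 (median 0.08). Past the threshold, 1 of the 15 fell, when 4.59% of all tested genes changed in either direction. The part of these markers was not tested.

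The other members were closer to 0. Piwil2 had log2 ratios of 0.25, 0.66, -0.42 and 0.96 in the pairs of DKO 51, 61, 60 and 59, so its sign was not the same in all pairs, and its mean was 0.36 (SE 0.233, interval -0.23 to 0.95, limma adjusted p = 0.379). Tex19.1 had 0.12, 0.54, -0.02 and 0.15, with a mean of 0.20 (SE 0.104, interval -0.06 to 0.46, adjusted p = 0.289). Asz1 averaged -0.00 (SE 0.104, interval -0.27 to 0.26). Ddx4, Mael and Mov10l1 were thus the 3 of 6 tested members with a positive ratio in all 4 pairs, as were 20.2% of all tested genes. The dim members Tdrd1, Tdrd6, Tdrd9 and Tdrkh had ratios between -0.51 and 0.06, the lowest of them in Tdrkh. Repeat arrays of the same lines, which exist for 3 of the 5 pairs, differed by 0.0022 to 0.26 in the log2 ratio of a tested member (median 0.019 over 18 differences). The largest was that of Mov10l1 in T2KO over T1KO.

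**Figure D3:**
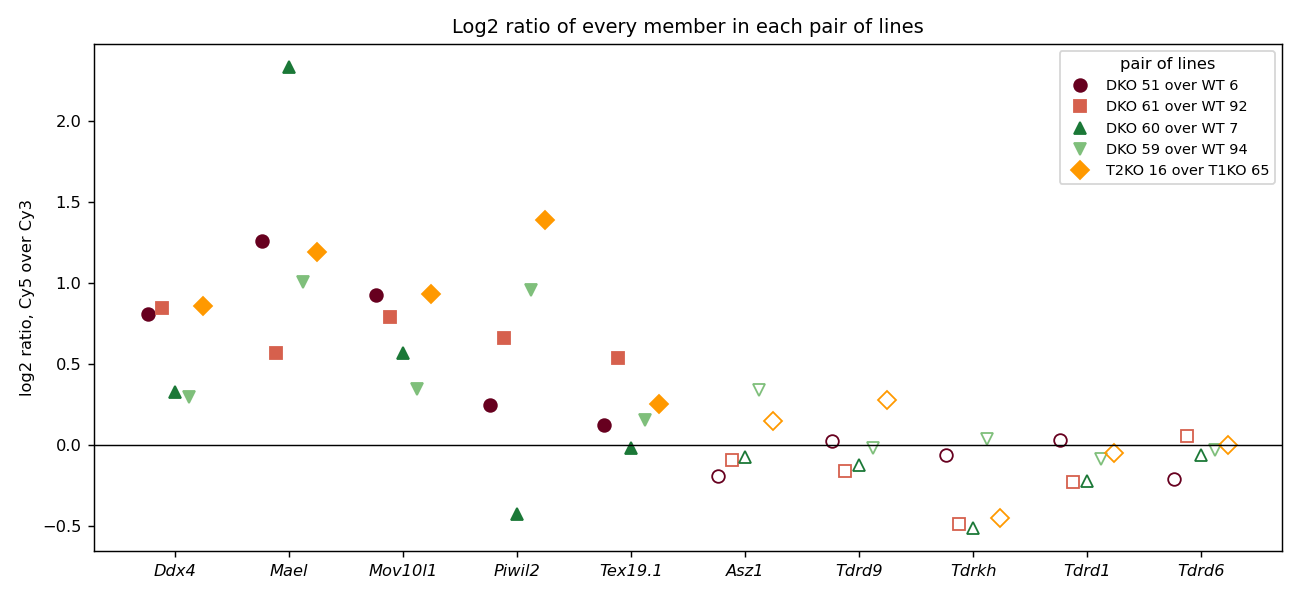
Log2 ratio of Cy5 over Cy3 for all 10 members in the 4 DKO over WT pairs (circle and square male, triangles female) and in T2KO 16 over T1KO 65 (diamond); filled symbols are members well above background in every labelled channel, open symbols the others. Ddx4, Mael and Mov10l1 are above 0 in all 5 pairs, and Piwil2 lies between -0.42 and 1.39.

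The male and female pairs were also set against each other. The mean log2 ratio of Ddx4 was 0.83 in male and 0.31 in female pairs, a difference of 0.51 (SE 0.118, unadjusted p = 0.0106 in limma, adjusted p = 0.829). For Mov10l1 it was 0.86 in male and 0.46 in female pairs (difference 0.40, limma adjusted p = 0.829), and for Mael 0.92 in male and 1.67 in female pairs (difference -0.76, adjusted p = 0.829). Without the pair of DKO 60 and WT 7 the Mael difference was -0.09. In the same comparison 0 of 15 feeder markers were above 0 (median -0.72) and 6 of 6 markers of 2-cell-like cells were (median 1.19), and their part in the member values was not tested. No tested gene passed for the difference between the sexes in limma (0%), with 2 of the 6 members and 1062 of 20666 genes (5.14%) at an unadjusted p under 0.05. Sex and slide cannot be told apart here.

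T2KO over T1KO shared no line with the DKO over WT pairs, though it had the same dye order. The log2 ratio was 0.86 for Ddx4 (SE 0.118, interval 0.54 to 1.18, limma adjusted p = 0.262) and 0.94 for Mov10l1 (SE 0.148, interval 0.54 to 1.34, adjusted p = 0.262). Mael had 1.19 (SE 0.524, interval -0.23 to 2.61) and Piwil2 1.39 (SE 0.507, interval 0.02 to 2.77). Tex19.1 had 0.25 and Asz1 0.15. These ratios rest on the background correction in use: with normexp fitted on all spots they were 0.33 for Ddx4, 0.054 for Mov10l1, 0.63 for Mael and 0.12 for Piwil2. Marker lists also lay away from 0, with no marker past the threshold. The median log2 ratio was 0.51 for ES cell markers (8 of 10 above 0), 0.46 for primordial germ cell markers (6 of 8), 1.20 for markers of 2-cell-like cells (6 of 6) and -0.48 for primitive endoderm markers (0 of 7), and their part was not tested. Of the 6 members 3, Ddx4, Mov10l1 and Piwil2, had an unadjusted p under 0.05. No gene passed in this comparison (0% of 20666, with 2703, or 13.1%, at an unadjusted p under 0.05 in limma), which rests on 1 pair that is assumed to vary like the others. Ddx4, Mael and Mov10l1 were the 3 of 6 tested members above 0 in all 4 DKO pairs and in this one, as were 12.3% of all tested genes.

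T2KO minus male WT also lay across dyes, and it lay between slides as well. The log2 difference was 0.97 for Ddx4 (SE 0.195, limma adjusted p = 0.191), 0.99 for Mov10l1 (SE 0.181, adjusted p = 0.178), 1.09 for Mael (SE 0.346, adjusted p = 0.252) and 1.30 for Piwil2 (SE 0.616, adjusted p = 0.361), with 0.13 for Tex19.1 and 0.08 for Asz1. Piwil2 rested on single WT lines, with 0.76 without WT 92 and 1.83 without WT 6. In the same comparison 0 of 15 feeder markers were above 0 (median -0.49), while 6 of 6 markers of 2-cell-like cells (median 1.04) and 6 of 8 primordial germ cell markers (median 0.41) were, and their part was not tested. None of the 6 members passed in limma, as against 2 of all genes (0.00968%), and 3 of the 6 had an unadjusted p under 0.05, as against 3309 of all genes (16%). This comparison shares the T2KO line with T2KO over T1KO and the male WT lines with DKO over WT, so the values are not separate measurements of one effect.

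Within 1 dye, no member passed between lines without and with Tet1. T1KO minus male WT and male DKO minus T2KO both lay between slides, so slide and Tet1 loss cannot be told apart in either. In Cy3, T1KO minus male WT was 0.08 for Mov10l1 (SE 0.148, interval -0.29 to 0.44, limma adjusted p = 0.85), 0.17 for Ddx4 (SE 0.159, interval -0.22 to 0.57), 0.05 for Mael (SE 0.283, interval -0.65 to 0.74), -0.19 for Tex19.1, -0.19 for Piwil2 and 0.04 for Asz1. No gene passed (0%), with 0 of the 6 members and 2819 of 20666 genes (13.6%) at an unadjusted p under 0.05 in limma. Leaving out WT 92 turned Ddx4 to -0.01 and Mov10l1 to -0.10. With normexp on all spots the values were 0.39 for Ddx4, 0.42 for Mov10l1 and 0.26 for Mael, so neither size nor direction was fixed.

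In Cy5, male DKO minus T2KO was -0.14 for Ddx4 (SE 0.200), -0.13 for Mov10l1 (SE 0.271), -0.17 for Mael (SE 0.370), 0.20 for Tex19.1 and -0.22 for Asz1. Without DKO 61, Ddx4 turned to 0.02, Mov10l1 to 0.12 and Mael to 0.20. Piwil2 was lower in male DKO than in T2KO, by a log2 difference of -0.84 (SE 0.293, interval -1.61 to -0.07), but it missed the threshold after adjustment (limma adjusted p = 0.368). It was the 1 of 6 members with an unadjusted p under 0.05, as were 2633 of all genes (12.7%). With normexp on all spots its difference was -0.47. In the same comparison 1 of 8 primordial germ cell markers (median -0.40) and 14 of 15 feeder markers (median 0.29) were above 0, and their part was not tested. None of the 6 members passed in limma, against 2 of all genes (0.00968%), and neither of those 2 remained without DKO 51 or without DKO 61, when no gene passed. The interval of Piwil2 rests on the single T2KO line being as variable as the others.

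Tet1 loss was also estimated with the dye cancelled, as the male DKO over WT mean minus T2KO over T1KO, divided by 2, which removes a dye effect that all arrays share. It was -0.04 for Mov10l1 (SE 0.0904, interval -0.28 to 0.21) and -0.01 for Ddx4 (SE 0.0724, interval -0.21 to 0.18). It was -0.14 for Mael (SE 0.321), -0.47 for Piwil2 (SE 0.310), 0.04 for Tex19.1 and -0.14 for Asz1, with limma adjusted p between 0.662 and 0.966. No gene passed (0%), with 0 of the 6 members and 2131 of 20666 genes (10.3%) at an unadjusted p under 0.05, and Tet1 itself was at -2.0 (SE 0.0836, adjusted p = 0.0824). These intervals assume the background correction in use. With normexp fitted on all spots the values turned to 0.25 for Ddx4, 0.39 for Mov10l1, 0.14 for Mael and 0.16 for Piwil2. The comparison uses the same arrays as the male DKO over WT and T2KO over T1KO values, so it regroups them and adds no lines. For the same estimate 7 of 7 primitive endoderm markers (median 0.38) and 2 of 10 ES cell markers (median -0.32) were above 0. Their part in the member values was not tested.

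**Figure D4:**
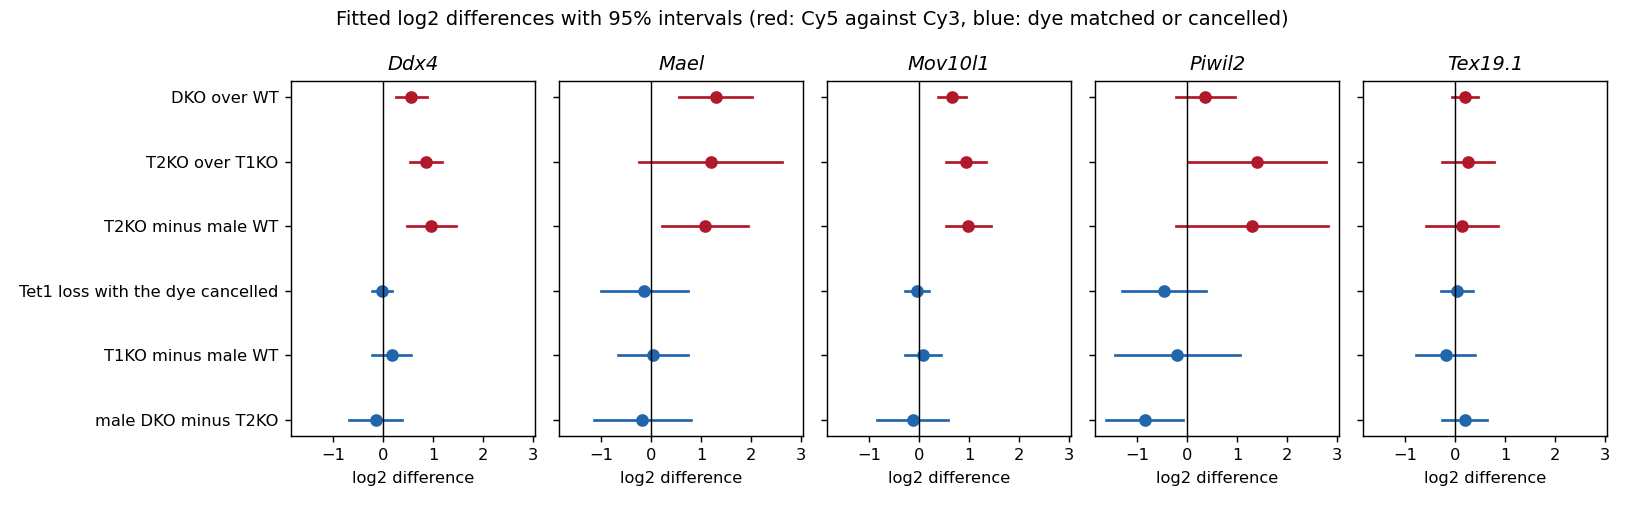
Fitted log2 difference of 5 bright members with its 95% interval in 6 comparisons. Red rows set Cy5 lines against Cy3 lines, and blue rows compare within 1 dye or cancel it. T2KO minus male WT, T1KO minus male WT and male DKO minus T2KO also lie between slides. For Ddx4 and Mov10l1 the red intervals lie above 0 and the blue ones span 0 with the correction in use, whereas with normexp on all spots Mov10l1 is at 0.054 in T2KO over T1KO and 0.42 in T1KO minus male WT; none but the Mov10l1 interval of DKO over WT goes with an adjusted p under 0.05.

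Across the 11 labelled lines, after the mean of each dye was removed, Ddx4 and Mov10l1 moved together (Pearson r = 0.91). This was the highest r between any tested members. The next were Piwil2 with Tex19.1 (0.61) and Piwil2 with Mov10l1 (0.59). Mael did not follow Ddx4 (r = -0.47) or Mov10l1 (r = -0.15), and its highest r was with Asz1 (0.52). The genes most like Ddx4 were Trps1 (r = 0.98) and Azin2 (0.95), those most like Mov10l1 were Ly6g6d (0.96) and Gm9112 (0.93), and the first for Mael was Gm6422 (0.92). Those most like Piwil2 were Col17a1 (0.96) and Klf11 (0.95), and those most like Tex19.1 were Zfp830 (0.95) and Cstf2t (0.93). The first by symbol for Asz1 was Tex13b (0.91). These are descriptions over 11 lines that share arrays in pairs, and they were the highest among 20666 genes.

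In a list of other genes of the pathway, 1 passed. Of 30 further piRNA and germ granule genes, 26 were measured, of which 1 rose and 0 fell in DKO over WT. Of all tested genes, 2.86% rose and 4.59% changed in either direction. At an unadjusted p under 0.05 in limma were 7 of the 26, as against 26.2% of all tested genes. The median log2 ratio was 0.01, against 0.02 over all tested genes. The one that rose was Dazl, a germ-cell RNA-binding protein, whose log2 level was 8.70 to 9.90 in DKO lines and 7.74 to 8.41 in WT lines, a log2 ratio of 1.26 (SE 0.138, 2.40-fold, limma adjusted p = 0.0216). The call of Dazl did not hold when any 1 of the 4 pairs was left out, as no gene then passed. Dazl had 0.99 in T2KO over T1KO and 0.12 in T1KO minus male WT. The next by p were Stk31, a germ-cell kinase with a Tudor domain, at 0.47 (adjusted p = 0.0648) and Tex19.2, the relative of Tex19.1, at 0.45 (adjusted p = 0.0761).

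Of 16 other germline genes known to be silenced by methylation, 15 were measured. None passed in DKO over WT in limma, and 3 of 15 had an unadjusted p under 0.05, as against 26.2% of all tested genes (5414). Of the 15, 13 were above 0, and the median was 0.23, against 0.02 over all tested genes. By pair the median was -0.01 for DKO 51 over WT 6 and 0.35 for DKO 61 over WT 92. It was 0.66 for DKO 60 over WT 7, the pair that also had the highest feeder marker median, and 0.23 for DKO 59 over WT 94. The part of the feeder markers was not tested. Among 15 measured methylation regulators, 1 rose and 1 fell, when 4.59% of all tested genes changed in either direction. Ehmt1, a histone H3 lysine methyltransferase, rose by 0.52 (limma adjusted p = 0.0216), but another of its probes had -0.18. Uhrf1, which brings Dnmt1 to replicated DNA, had a log2 ratio of -0.40 (adjusted p = 0.0291), a fall of 1.32-fold, and its other probe had -0.11. Ehmt2, the partner of Ehmt1, was at -0.34 (adjusted p = 0.105). Among 14 subunits of the Polycomb complex PRC1.6, which represses germline genes in ES cells, none passed in limma, and 4 had an unadjusted p under 0.05, against the same 26.2% of all genes. Those with the smallest p were Wdr5 at 0.28 (limma adjusted p = 0.0818), Yaf2 at 0.41 (adjusted p = 0.0865) and Rnf2 at 0.37 (adjusted p = 0.146).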

How the data were processed

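RNA was labelled from 200 ng per sample, per the labels' protocols. The deposited scanner files hold spot intensity and local background intensity in both channels, unnormalized, with the software's processed intensity and log10 ratio, per the file headers (Agilent Feature Extraction 10.1.1.1). The authors' deposited values for 31595 probes (31539 matched) are near log2 of Cy5 over Cy3, judged by r = 0.925 to 0.971 and slope 2.77 to 2.93 against the log10 ratios. Their column medians were 0.00178 to 0.00752, their direction was Cy5 over Cy3, and their centring and normalization are unknown, as the sources used here do not give them. No spot was saturated (0 of 43020 per array).

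Background was corrected with normexp (offset 50), leaving out of its fit the gene spots dimmer than their local background (71 to 122 per array), a choice made after Tet1 and Tet2 values had been seen. Loess within arrays and Aquantile between them followed, which also used the left-out Cy5 channel of the T1KO 99 arrays. Controls and 173 to 337 outlier spots per array were dropped, and repeat arrays were averaged. A probe entered the tests if every array of some group (a genotype in 1 sex) had it well above background (25869 of 39429 probes, 26581 of which were named through RefSeq), and each gene was represented by its brightest tested probe. Ratios of the 4 DKO/WT pairs, and levels of single lines for comparisons within a dye, were tested in limma 3.58.1 (R 4.3.3, the data.table package (version 1.17.8), jsonlite 2.0.0; two-sided, Benjamini-Hochberg over all genes, threshold 0.05). In fits on levels, female lines, and T1KO lines for T2KO minus male WT, entered only for the spread. DKO and WT lines of a pair shared arrays, and their deviations from the genotype means correlated at 0.30, 0.37, 0.19 and 0.51 across genes. The steps were tested on simulated data. Figures used matplotlib 3.10.9 and pandas 2.3.3.

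Named were all members, Tet1 and Tet2, and, from the lists of other pathway genes, methylation regulators and PRC1.6 subunits, those that passed in DKO over WT or otherwise the 3 with the smallest p. Likeness was the highest r over the 11 lines. The members, lists and rules were chosen with earlier results of these data known. Array positions are on mm9, promoters on GRCm38.p6. Alternatives changed the background correction, scaling, filter, variance prior, pairing and the lines used.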

Additional observations from a re-analysis of the deposited data

Results flagged for a closer look

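The Mael level of the female WT line 94, 11.45 on the log2 scale, lay far from the other WT lines, with a gap of 0.855 of the group's range. It was the 1 outlier among 18 groups of 4 lines or pairs checked, where chance flags about 1 in 20. The Cy5 channel of the T1KO 99 arrays, which the labels leave out, gave signals above the highest WT line for 6 members, all well above background on both arrays. Their log2 levels there were 13.14 for Mael (highest WT line 11.45), 10.66 for Ddx4 (10.25), 8.11 for Mov10l1 (7.80), 7.91 for Asz1 (6.65), 15.14 for Tex19.1 (14.95) and 9.02 for Piwil2 (8.91). The WT values are in Cy3, so the dye and the sample cannot be told apart. How many of all tested genes lay above their highest WT line in this channel is not given. Nothing is read from the count of 6 members. For Asz1, the 18 labelled channels were above background only on the 3 female DKO arrays.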

How the results depend on the processing

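In DKO over WT the ratios of Ddx4, Mael, Mov10l1, Tex19.1 and Piwil2 were above 0 in all 15 alternatives, but the calls moved. Alternatives in the filter, variance prior, pairing or sex term leave the ratio unchanged or nearly so, so its sign was fixed there. Of the members, 1 passed as reported; 4 passed with median centring, 3 with every array kept and the pair as a random block, and 0 with normexp on all spots, the scanner software's signals, the strict filter (above background in every channel used), an intensity-dependent variance prior, the authors' table, sex as a covariate or any pair left out. Without the replicate block, on unpaired channels, 0 members passed and Mov10l1 had an adjusted p of 0.0566 (753 genes). Genes past the threshold numbered 948 as reported (62.4% rises), 363 with all spots, 685 with scanner signals (75.6% rises), 453 with the strict filter, 532 with the authors' table, 1476 with every array (51.8% rises), 6725 with median centring (92.5% rises), and 0 with the variance prior, with sex as a covariate or with any 1 pair left out (3619 to 4877 at an unadjusted p under 0.05). Median centring moved the median of all genes to 0.20, and relative to it Mael stood at 1.40, Ddx4 at 0.64, Mov10l1 at 0.58, Tex19.1 at 0.53, Piwil2 at 0.31 and Asz1 at -0.42.

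Male DKO minus T2KO had 2 genes as reported, 1 with all spots, 137 with scanner signals, 4 with the variance prior, 4 without normalization between arrays (chosen after seeing the data) and 0 without DKO 51 or DKO 61. T2KO minus male WT had 2 as reported, 0 with all spots, 188 with scanner signals, 5 with the variance prior, 4 without normalization between arrays and 0 without WT 6 or WT 92. T1KO minus male WT had 5 with scanner signals, and Tet1 loss with the dye cancelled had 3 with no filter.

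Values that changed sign were not called. With all spots, T2KO over T1KO kept its sign but was 0.054 for Mov10l1, 0.12 for Piwil2, 0.33 for Ddx4 and 0.63 for Mael. With all spots, Tet1 loss gave 0.25 for Ddx4, 0.14 for Mael, 0.39 for Mov10l1 and 0.16 for Piwil2; T1KO minus male WT gave -0.038 for Asz1 and 0.25 for Piwil2; male DKO minus T2KO gave 0.11 for Mov10l1; T2KO minus male WT gave -0.00094 for Asz1. Asz1 had 0.38 in DKO over WT with scanner signals and -0.11 in T2KO over T1KO with median centring. With 1 line or pair left out, DKO over WT ranged from -0.12 to 0.059 for Asz1, and the difference between the sexes from -0.50 to 0.88 for Piwil2. T1KO minus male WT ranged from -0.071 to 0.15 for Asz1, -0.010 to 0.36 for Ddx4, -0.10 to 0.20 for Mael, -0.10 to 0.25 for Mov10l1, -0.73 to 0.34 for Piwil2 and -0.54 to 0.16 for Tex19.1. Male DKO minus T2KO ranged from -0.31 to 0.021 for Ddx4, -0.54 to 0.20 for Mael and -0.37 to 0.12 for Mov10l1. T2KO minus male WT ranged from -0.0072 to 0.16 for Asz1 and -0.22 to 0.49 for Tex19.1, and Tet1 loss from -0.31 to 0.035 for Mael and -0.066 to 0.14 for Tex19.1. The cause of these changes was not tested. For the dim members, signal near background limits any value.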

Other observations

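The sample in the Cy5 channel of the T1KO 99 arrays, whose genotype the labels do not give, had the following log2 ratios over T1KO 99 on its 2 arrays. Mael was at 2.21 and 2.26, Asz1 at 1.37 and 1.22, Piwil2 at 1.25 and 1.33 and Tex19.1 at 0.83 and 0.77. Ddx4 was at 0.32 and 0.41, and Mov10l1 at 0.31 and 0.45. Tdrkh was at 0.07 and 0.03 and was above background on both arrays, while Tdrd1, Tdrd6 and Tdrd9 were above background on neither. Of all tested genes, 0.47% had a mean ratio at or above that of Mael. The share was 1.58% for Asz1, 1.59% for Piwil2, 4.82% for Tex19.1, 15.8% for Ddx4 and 15.3% for Mov10l1.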
